A study of Mus musculus with 14 samples.

Results

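The 36 genes described here encode aminoacyl-tRNA synthetases, the enzymes that join each amino acid to its transfer RNA before the ribosome can use it. They were taken by gene symbol from 2 deposited expression tables of mouse acute myeloid leukaemia (AML) cells, and all 36 were found in both. The tables share 12678 gene symbols and hold 13406 and 14563 genes. Of the 36 members, 20 encode cytosolic enzymes or subunits and 16, with names ending in 2, encode mitochondrial enzymes.

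The leukaemias, of strain C57/BL6, came from foetal liver cells that carried 2 retroviral vectors and were grown in irradiated recipient mice. One vector held MLL-AF9, a leukaemic fusion of a chromatin regulator with a transcription factor partner, under a Tet-Off promoter with a dsRED reporter. The other held NRASG12D, an activated form of the signalling protein NRAS, with the Tet-Off transcriptional activator. All 4 groups carried both vectors, and the cells had been taken from spleens of sick animals. In the first set, 4 untreated cultures were compared with 4 cultures kept in doxycycline for 4 days, which switches the fusion off. Each pair shared a label (TRIMA2-M1B1, TRIMA2-M3B1, TRIMA2-M4B1 and TRIMA1-M4B1, here replicates 1 to 4), and the names of 3 doxycycline libraries end in an R whose meaning the labels do not give. In the second set, 3 cultures transduced with a control-GFP retrovirus were compared with 3 transduced with Id2-GFP, which adds the transcriptional regulator Id2. GFP-positive cells were sorted after 2 days. The labels do not say how many animals the cultures came from, so the tests measure the spread between these libraries. Doxycycline was given only to cells in which it switches the fusion off, so an effect of the drug and an effect of losing MLL-AF9 cannot be told apart.

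Synthetases fall into class I and class II by the fold of their catalytic domain. In animal cells 8 cytosolic synthetase genes of this set encode enzymes that assemble with the scaffold proteins encoded by Aimp1, Aimp2 and Eef1e1 into the multisynthetase complex. Mitochondria translate their own messages and mostly use separate nuclear-encoded synthetases, whereas Kars and Gars each supply both compartments. Transcription of many cytosolic synthetase genes is raised by Atf4, the transcription factor of the integrated stress response, which reads an element known as the C/EBP-ATF response element.

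The promoters of the 3 cytosolic members with the smallest p-values in the doxycycline comparison are shown because these genes carry its clearest changes. Each is the 250 bases before the start site, on the strand of the gene, from RefSeq on GRCm38.p6, with any E-box (CACGTG, the sequence read by Myc) or core of the NRF1 motif (GCGCA, any base, then GCGC) in capitals. The match in Kars lies on the other strand, so its capitals read as the reverse complement of that motif. Farsa lies on chromosome 8 at 84856736 to 84856985 (plus strand), Kars on chromosome 8 at 112011355 to 112011604 (minus strand) and Iars on chromosome 13 at 49681880 to 49682129 (plus strand).

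The 3 sequences read as follows, 5′ to 3′.
Farsa: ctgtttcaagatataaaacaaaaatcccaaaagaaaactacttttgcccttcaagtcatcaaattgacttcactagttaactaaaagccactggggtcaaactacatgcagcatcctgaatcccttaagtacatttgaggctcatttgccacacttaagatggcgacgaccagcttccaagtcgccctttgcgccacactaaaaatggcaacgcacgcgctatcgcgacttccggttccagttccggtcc
Kars: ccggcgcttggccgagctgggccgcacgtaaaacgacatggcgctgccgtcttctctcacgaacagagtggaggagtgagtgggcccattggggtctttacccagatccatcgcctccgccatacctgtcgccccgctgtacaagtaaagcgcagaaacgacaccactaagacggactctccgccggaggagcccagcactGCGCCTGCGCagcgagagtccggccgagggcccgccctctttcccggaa
Iars: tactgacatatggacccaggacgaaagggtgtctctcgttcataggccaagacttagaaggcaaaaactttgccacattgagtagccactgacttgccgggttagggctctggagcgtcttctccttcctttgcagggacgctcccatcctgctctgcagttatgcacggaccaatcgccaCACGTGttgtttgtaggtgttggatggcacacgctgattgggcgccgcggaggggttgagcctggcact

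The table of RefSeq promoters held 27 of the 36 members, 13 cytosolic and 14 mitochondrial, each as 250 bases before and 50 bases after the start site. The core of the C/EBP-ATF response element (TGATGNAA, either strand) was present in 5 of them, Aars, Gars, Iars, Tars and Yars, all cytosolic, and in 0 of the 14 mitochondrial promoters. Of all 32851 RefSeq promoters of that length, 3.97% held it. The E-box was in 5 member promoters (Aars, Ears2, Farsb, Iars and Tars) against 7.15% of all promoters, and the NRF1 core was in 5 (Farsb, Iars2, Kars, Mars2 and Tars) against 4.60%. No matches to different motifs overlapped in the member promoters, a match is only a match of letters, and these genes were picked for display after their values had been seen. The windows of 24 bases around each match to the C/EBP-ATF core, written on the strand of the gene with the core in capitals, are set out so that the flanks can be compared.
Aars, chromosome 8, 111033722 to 111033745, plus strand, core starting 112 bases before the start site: cttgagcaTTGCATCAgccgagcc
Aars, chromosome 8, 111033843 to 111033866, plus strand, core from base 10 of the gene: gggtcactTTTCATCAgagcgctc
Gars, chromosome 6, 55037963 to 55037986, plus strand, core starting 30 bases before the start site: ctgcgctaTTTCATCAtgcaccgg
Iars, chromosome 13, 49682129 to 49682152, plus strand, core from base 8 of the gene: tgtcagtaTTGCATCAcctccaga
Tars, chromosome 15, 11399658 to 11399681, minus strand, core starting 15 bases before the start site: gagtcccgTTGCATCAgctggtta
Yars, chromosome 4, 129189898 to 129189921, plus strand, core from base 4 of the gene: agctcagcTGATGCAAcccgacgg
In the first 5 windows the core lies on the strand opposite to the gene and reads as its reverse complement, and in Yars it lies on the strand of the gene.

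Depth was 17922644 to 25959766 reads on tabled genes per library in the doxycycline set and 14051150 to 14948487 in the Id2 set. Members had 80 to 183192 reads in the first and 84 to 30522 in the second, so no member was near the limit of 3 reads. The labels held on the targeted genes. Mll1, the mouse gene for the MLL part of the fusion, was at 1998 to 6369 CPM (reads scaled to library size) untreated and 114 to 144 CPM in doxycycline. Mllt3, for the AF9 part, fell from 234 to 811 CPM to at most 6.81 CPM, Nras was at a log2 fold change of 0.26, and Id2 was at 25.8 to 51.5 CPM with control-GFP and 952 to 1631 CPM with Id2-GFP. Of 9 myeloid markers 8 were tabled. Their sum was 4496 to 7339 CPM untreated and 25966 to 38312 CPM in doxycycline. In doxycycline most of that sum was the macrophage gene Lyz2, at 2178 to 4839 CPM untreated and 21377 to 33077 CPM in doxycycline. By limma 5 markers were higher (Lyz2, Itgam, Csf1r, Ptprc and Cd33), the progenitor genes Kit and Elane were lower, and Mpo was not called. The defining T cell and NK cell markers were in neither table, the erythroid markers were not in the doxycycline table, and of the B cell markers only Cd79b was tabled, at 7.12 to 23.4 CPM. Of the 3 megakaryocyte genes Itga2b and Gp9 fell and Pf4 rose (by 0.94 on the log2 scale, limma adjusted p = 0.0135) in doxycycline, the endothelial gene Pecam1 fell, and no marker was called in the Id2 set. In the Id2 set control-GFP replicate 3 stood apart, at 87.8 on a first principal component that held 57.8% of the variance, against -41.6 to 23.1 for the others.

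Most synthetase genes of both compartments were lower after 4 days in doxycycline. There, 14 of the 20 cytosolic and 11 of the 16 mitochondrial members were lower at an adjusted p under 0.05 (limma, Benjamini-Hochberg over all 13406 genes), and 0 members were higher. Among all genes, 33.8% were lower and 31.3% higher by the same rule. The median log2 fold change was -0.41 over the cytosolic members and -0.40 over the mitochondrial members, beside -0.03 over all genes. Groups did not overlap, with doxycycline lower, for 12 cytosolic and 11 mitochondrial members (31.1% of all genes), and 15 and 11 members were lower in 4 of 4 pairs (38.9% of all genes). The myeloid and proliferation genes moved in the same libraries, and their part in these differences was not tested. In bulk RNA, fewer cells of a type and less RNA per cell cannot be told apart.

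The values rest on the scaling in the deposited table, whose factors were above 1 in every untreated library and 0.891 to 0.951 in doxycycline. With library totals in place of these factors the median of all genes moved from -0.03 to -0.27, and the calls over all genes moved from 4535 lower and 4198 higher to 6912 lower and 2702 higher. Under that scaling 19 cytosolic and 14 mitochondrial members were lower and the medians were -0.65 and -0.64; this scaling moves every gene by the same amount. With quantile normalization, which does not, the medians were -0.51 and -0.44, beside -0.10 for all genes.

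**Figure D1:**
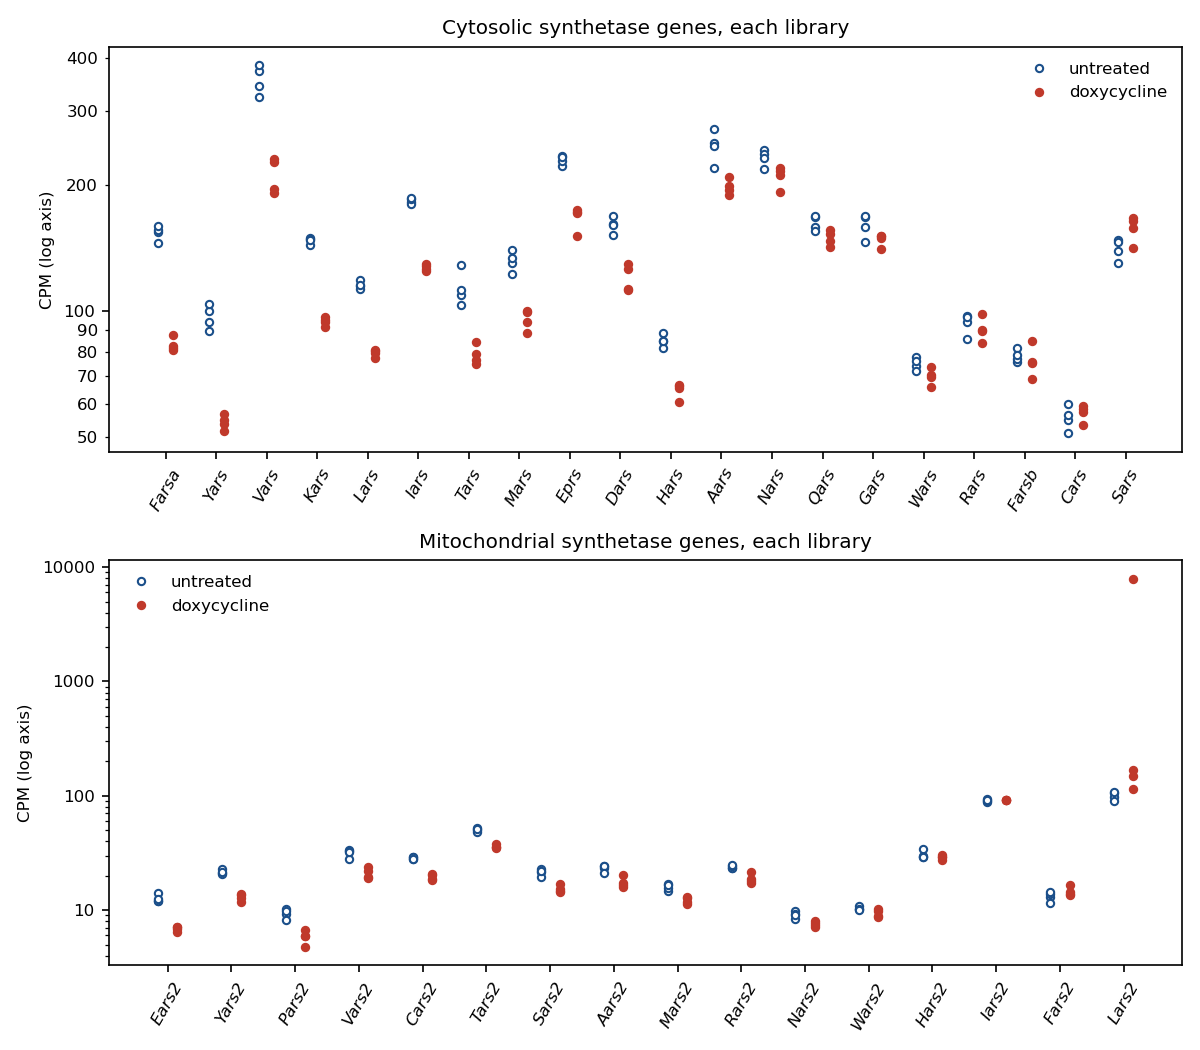
Level of each synthetase gene in CPM (log axis) in the 4 untreated (open) and 4 doxycycline (filled) libraries, with genes ordered from the lowest to the highest log2 fold change. At the left of each panel the groups are apart, as in Farsa (145 to 159 against 80.6 to 87.7 CPM), and at the right they overlap, except Lars2, where 1 doxycycline library stands at 7919.6 CPM.

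Farsa and Farsb encode the catalytic alpha subunit and the beta subunit of cytosolic phenylalanyl-tRNA synthetase, which works as a tetramer holding both. Their values in doxycycline are set side by side here, a contrast picked out after the values were seen and not tested itself. Farsa was at 154, 145, 156 and 159 CPM in untreated replicates 1 to 4 and at 81.7, 82.5, 87.7 and 80.6 CPM in the doxycycline replicates. The groups were far apart, and the log2 fold change of -0.89 ± 0.046 (SE, n = 4 and 4, limma adjusted p = 5.7e-07) was the lowest of the 36. Farsb was at 81.7, 75.6, 76.8 and 78.8 CPM untreated and at 84.9, 68.7, 75.7 and 75.4 CPM in doxycycline. Here the groups overlapped, with a log2 fold change of -0.04 (95% interval -0.18 to 0.10, limma adjusted p = 0.585). Exons of Farsb share 248 of 2620 bases (9.47%) with those of Sgpp2 on the other strand. The part of this overlap in the Farsb values was not tested. Taken per library, log2 CPM of Farsa exceeded that of Farsb by 0.92 to 1.02 untreated and by -0.05 to 0.26 in doxycycline. The mitochondrial enzyme for the same amino acid, Fars2, is a single chain, and its log2 fold change was 0.15 ± 0.092 (SE, limma adjusted p = 0.182).

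**Figure D2:**
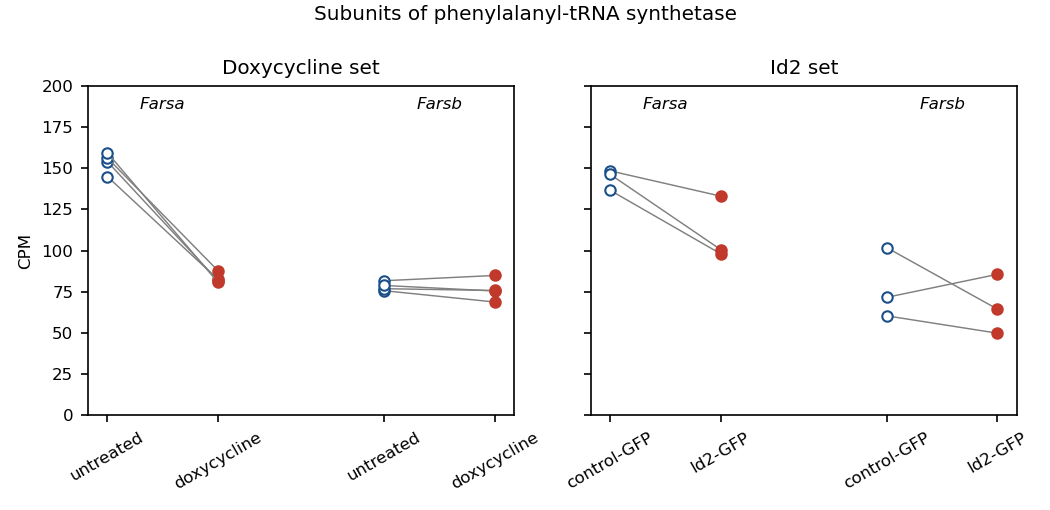
Level in CPM of Farsa and Farsb, the genes of the cytosolic phenylalanyl-tRNA synthetase subunits, with each line joining libraries of the same pair label or replicate number. In the doxycycline set all 4 Farsa lines fall, from 145 to 159 down to 80.6 to 87.7 CPM, while the Farsb values overlap; in the Id2 set (3 pairs) neither gene passed the test.

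Among the 8 synthetases of the multisynthetase complex, 7 were lower in doxycycline and Rars, the arginyl enzyme, was not called at -0.05. Kars, the lysyl enzyme, was at 149, 144, 149 and 148 CPM untreated and 94.2, 96.7, 95.4 and 91.5 CPM in doxycycline. The groups were separated with little spread, a log2 fold change of -0.64 ± 0.037 (SE, limma adjusted p = 8.11e-07). Iars, the isoleucyl enzyme, was at 182, 180.3, 185 and 186 CPM untreated and 125, 126, 129.6 and 128 CPM in doxycycline. It too was lower in every pair, with a log2 fold change of -0.53 ± 0.035 (SE, limma adjusted p = 1.61e-06). The leucyl, methionyl, glutamyl-prolyl and aspartyl genes Lars, Mars, Eprs and Dars lay between -0.54 and -0.42. Qars, the glutaminyl enzyme, was lower by only 0.12 on the log2 scale with overlapping groups (155 to 169 against 142 to 156 CPM, limma adjusted p = 0.0453), and that call was lost when any of 6 single libraries was left out. The scaffold genes all fell, Eef1e1 by 0.84, Aimp2 by 0.76 and Aimp1 by 0.20 on the log2 scale. The complex synthetases had a median of -0.46 and the 12 cytosolic members outside it a median of -0.23, with 7 of 12 lower; that difference was not tested.

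Outside the complex, the next lowest genes were Yars and Vars. Yars, the tyrosyl enzyme, was at 100.1, 89.6, 104 and 94.4 CPM untreated and at 53.9, 56.8, 55.1 and 51.8 CPM in doxycycline, a log2 fold change of -0.83 ± 0.056 (SE, limma adjusted p = 1.7e-06). Vars, the valyl enzyme, was the highest member per kilobase of annotated exon in untreated cells. It was at 324, 373, 385 and 344 CPM untreated and at 192, 230.0, 227 and 195 CPM in doxycycline. Its untreated and doxycycline ranges did not meet, at a log2 fold change of -0.76 ± 0.080 (SE, limma adjusted p = 2.62e-05). Tars, Hars and Aars, for threonine, histidine and alanine, were lower by 0.52, 0.39 and 0.32 on the log2 scale. Nars, the asparaginyl enzyme, was called at -0.15 (limma adjusted p = 0.0372) although its groups overlapped, and it lost the call without any 1 of 5 libraries.

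The pairs differed in size. The median difference over the 25 lower members was -0.55, -0.41, -0.55 and -0.55 in pairs 1 to 4, and pair 2 (TRIMA2-M3B1) was the least lowered for 17 of the 25, beside 35.7% of all genes called lower. Its untreated library also had the lowest Mll1 of the 4, at 1998 CPM; the part of that level was not tested.

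Of the cytosolic members, 6 did not pass the test. Sars, the seryl enzyme, had the highest value of them, at 139, 131, 148 and 146 CPM untreated and 167, 164, 157 and 141 CPM in doxycycline. Its log2 fold change was 0.16 ± 0.063 (SE, limma adjusted p = 0.0518). Without doxycycline replicate 4 it was 0.21 and passed as higher (limma adjusted p = 0.00968). With library totals it was -0.08 and not called, so its sign depends on the scaling. Gars, the glycyl enzyme, was at -0.11 (limma adjusted p = 0.0947) and was lower in 4 of 4 pairs, and with the pair as a block it passed as lower (adjusted p = 0.0383). Wars (tryptophan) was at -0.10, Rars and Farsb at -0.05 and -0.04, and Cars (cysteine) at 0.04. By structural class, 7 of 10 cytosolic genes were lower in class I (median -0.46) and 7 of 10 in class II (median -0.36). Eprs, the glutamyl-prolyl gene, was counted in class I only. With the block 8 were lower in class II, and the classes were not tested against each other.

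**Figure D3:**
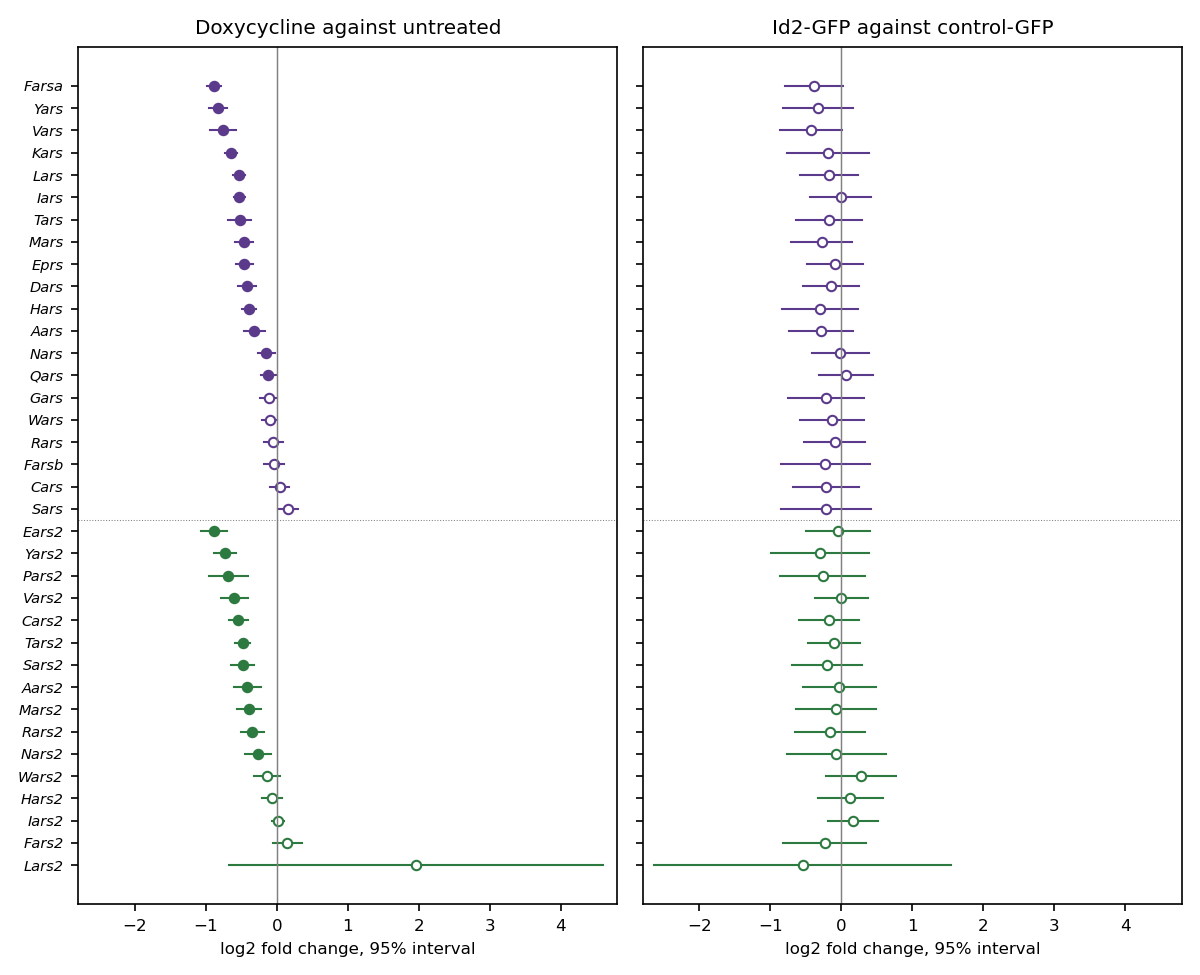
Log2 fold change and 95% interval of each member in the doxycycline (left) and Id2 (right) comparisons, cytosolic above the dotted line and mitochondrial below it, with filled points for an adjusted p under 0.05. On the left 25 of 36 points are filled and all of these lie below 0; on the right none is filled and the intervals are wider.

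The mitochondrial genes were lower-expressed than the cytosolic ones. Per kilobase of annotated exon, the untreated mean had a median of 29.4 CPM over the cytosolic members (8.46 for Cars to 63.6 for Vars) and of 5.35 over the mitochondrial members (1.30 for Nars2 to 10.2 for Iars2). These levels are approximate, since exons of other genes overlap those of 13 members in the annotation. The medians of the 2 compartments in doxycycline, -0.41 and -0.40, were not tested against each other.

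Ears2, the mitochondrial glutamyl enzyme, was the lowest of its compartment. It was at 11.9, 12.1, 14.1 and 12.5 CPM untreated and at 6.86, 7.06, 6.41 and 7.11 CPM in doxycycline, a log2 fold change of -0.88 ± 0.082 (SE, limma adjusted p = 1.17e-05). Yars2, for tyrosine, was at 22.8, 20.9, 20.9 and 21.6 CPM untreated and at 13.6, 12.7, 13.7 and 11.8 CPM in doxycycline. The groups were again separate, at a log2 fold change of -0.73 ± 0.069 (SE, limma adjusted p = 1.32e-05). Tars2, for threonine, fell from 48.1 to 52.2 CPM to 34.7 to 37.9 CPM, a log2 fold change of -0.48 ± 0.047 (SE, limma adjusted p = 1.67e-05). The other 8 lower genes ranged from Pars2, for proline, at -0.69 to Nars2, for asparagine, at -0.26, and all 8 had groups that did not overlap. Without untreated replicate 1, Nars2 no longer passed (limma adjusted p = 0.053).

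The 5 mitochondrial genes that were not called were Iars2, Hars2, Wars2, Fars2 and Lars2. Iars2, for isoleucine, was at 87.6 to 94.0 CPM untreated and 91.3 to 92.3 CPM in doxycycline, with an interval of -0.07 to 0.10 on the log2 scale. Its exons overlap those of Rab3gap2 on the other strand by 2034 of 8885 bases (22.9%), the largest share of any member. Hars2 was at -0.07, and its first exons overlap those of Hars on the other strand by 195 bases. The libraries were made with a kit that does not mark strand, so reads in these overlaps cannot be assigned. Leaving out phenylalanine, whose cytosolic enzyme has 2 genes (above), 15 amino acids had 1 gene in each compartment, with Eprs counted for glutamate and for proline. Of these, 8 had both genes lower. Another 3 had only the cytosolic gene lower (histidine, isoleucine and leucine), 3 only the mitochondrial gene (cysteine, arginine and serine), and tryptophan neither. For isoleucine, the 2 genes stood at -0.53 and 0.01, and for cysteine at 0.04 and -0.55. Cars2 shares 5.83% of its exonic bases with Naxd on the other strand. The part of this overlap and of that of Iars2 in these values was not tested.

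Lars2, the mitochondrial leucyl enzyme, differed from the other members by single libraries. It was at 105, 97.3, 108 and 90.9 CPM untreated and at 169, 115, 149.6 and 7919.6 CPM in doxycycline, the last with 183192 reads. The doxycycline values were all above the untreated ones, but the log2 fold change of 1.96 ± 1.17 (SE, limma adjusted p = 0.168) was carried by replicate 4, 46.9-fold above the next library of its group. Without that library it was 0.51 and passed as higher (limma adjusted p = 0.0065), against the direction of the 25 lower members. In the Id2 set the first control-GFP library was at 2007 CPM, beside 142 and 192 CPM in the other controls and 233 to 316 CPM with Id2-GFP.

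Other transcripts were high in the same libraries. Gm15564, annotated as an antisense gene, matches bases 3278 to 3349 of the main Lars2 transcript, in its 3′ untranslated region, at 98.6% over 72 bases. In doxycycline replicate 4 Gm15564 was at 198 CPM. Doxycycline replicates 1 to 3 were also above the untreated libraries, at 3.19, 2.14 and 2.89 CPM against 1.19 to 1.94 CPM. In the Id2 set it was at 52.2 CPM in the first control-GFP library against 3.56 to 8.97 CPM in the other 5. AA474408, which matches the same region at 94.8% over 97 bases, was at 8.49 CPM in doxycycline replicate 4. Unlike Gm15564, it was lower in doxycycline replicates 1 to 3 (0.54 to 0.86 CPM) than untreated (0.93 to 1.37 CPM). Gm42418 and Gm26917, annotated at the ribosomal RNA locus of chromosome 17, were at 16329 and 695 CPM in doxycycline replicate 4 and at most 554 and 81.6 CPM in the others. By its rise over the next library of the group, Lars2 ranked 14 of 13406 genes in doxycycline replicate 4 and 12 of 14563 in the first control. These transcripts' part in the Lars2 values, with or without doxycycline replicate 4, was not tested.

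**Figure D4:**
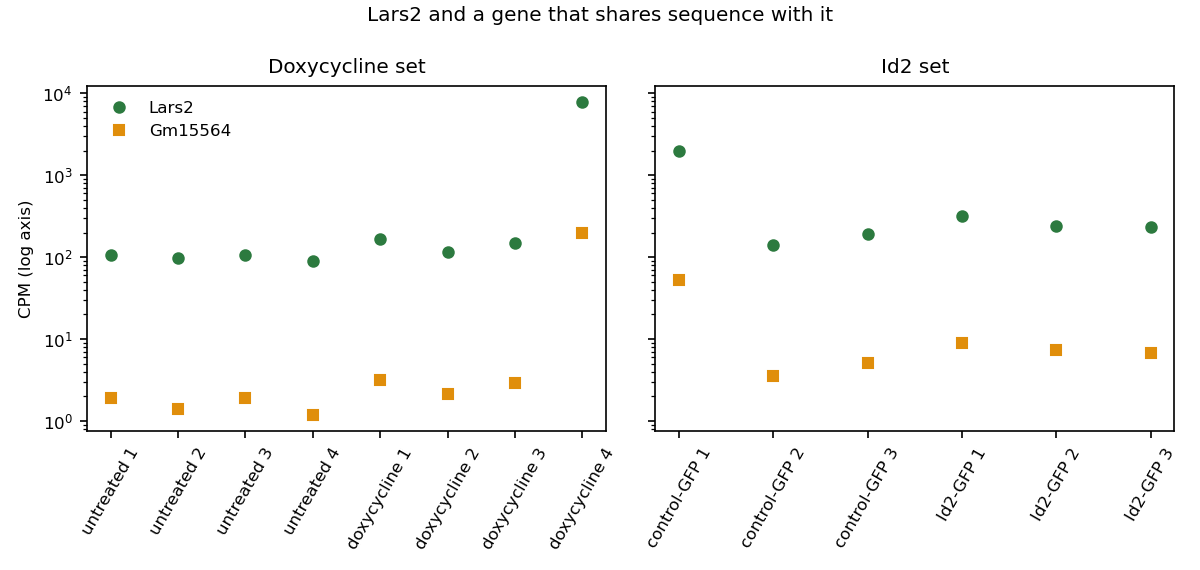
Level in CPM (log axis) of Lars2 (circles) and of Gm15564 (squares), which matches part of its 3′ untranslated region, in each library of both sets. Both genes are highest in doxycycline replicate 4 (7919.6 and 198 CPM) and, in the Id2 set, in the first control-GFP library (2007 and 52.2 CPM).

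Genes that work beside the synthetases showed the same direction in doxycycline where they passed the test. Over all genes, 33.8% were lower and 31.3% higher. Of 12 measured tRNA charging partners, 8 were lower and 0 higher. The lowest was Dtd1, which removes D-amino acids from tRNA, at a mean of 14.2 CPM untreated and 7.17 CPM in doxycycline. In log2 fold change the tRNA exporter Xpot was at -0.39 and Sepsecs, which makes selenocysteinyl-tRNA, at -0.37. Of 5 cytosolic elongation factors 3 were lower, the Eef1b2, Eef1d and Eef1g subunits of the exchange factor, while Eef1a1, which carries charged tRNA to the ribosome, was at 0.01. Of 9 mitochondrial translation factors 6 were lower and 0 higher, Tufm, the mitochondrial elongation factor, among them at -0.49.

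Atf4 itself was at 219 to 255 CPM untreated and 181 to 240.3 CPM in doxycycline, a log2 fold change of -0.18 ± 0.084 (SE, limma adjusted p = 0.0851) that passed as lower with the pair as a block (adjusted p = 0.0344). Of the 27 genes of the integrated stress response, 9 were lower and 8 higher, shares close to the 33.8% and 31.3% of all genes; with the block they were 10 and 10. The lower ones included the serine and glycine enzymes Psat1 (-1.30) and Shmt2 (-1.18) and the amino acid transporters Slc7a1 (-1.07) and Slc7a5 (-1.13). Among the higher ones were the stress protein gene Nupr1 (1.57), the cystine transporter gene Slc7a11 (1.55), Sesn2 (0.83), a sensor of leucine, and Ddit3 (0.65), a stress-induced transcription factor. Ddit3 shares 68 exonic bases with Mars on the opposite strand. Of the 5 members whose promoters held the C/EBP-ATF core shown above, Yars, Iars, Tars and Aars were lower and Gars was not called. Of the other cytosolic members with a promoter sequence, Dars, Eprs, Farsa, Kars, Mars and Qars were lower, and Farsb and Sars were not called. The part of the core in these values was not tested.

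Myc, a transcription factor that drives growth, was at 133 to 148 CPM untreated and 53.2 to 74.3 CPM in doxycycline, a log2 fold change of -1.07 ± 0.096 (SE, limma adjusted p = 9.59e-06). All 12 proliferation genes were lower, with a median of -0.56; the replication helicase gene Mcm2 was the lowest at -1.19. Wars is known to be induced by interferon-gamma. Of 7 measured interferon-gamma response genes, 3 were higher, Irf1 (0.50) and Gbp2 (0.80) among them, and Tap1 (-0.41) was lower. Over all genes the shares were 31.3% higher and 33.8% lower. Wars was at -0.10 (limma adjusted p = 0.0809).

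Adding Id2 gave no call among the synthetase genes. With Id2-GFP, 0 of 36 members passed an adjusted p under 0.05 (limma over 14563 genes), and 0 were under an unadjusted 0.05. Over all genes 0% were lower and 0.0137% higher, a count of 2 genes with Id2 among them, and 357 genes were under an unadjusted 0.05. With the replicate number as a block 35 genes passed, again with no member. Leaning lower, 19 of 20 cytosolic members had a negative log2 fold change with a median of -0.20, and 13 of 16 mitochondrial members with a median of -0.09, beside -0.03 for all genes. Of all 14563 genes, 8051 were negative. With library totals 17 of 20 and 10 of 16 were negative, beside 6853 of all 14563 genes, whose median was 0.02. By replicate number the cytosolic median difference was 0.12, -0.24 and -0.53 in pairs 1, 2 and 3, against 0.01, -0.006 and -0.09 for all genes. The mitochondrial median difference was -0.02, 0.01 and -0.23 in the same pairs.

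The members with the smallest p-values were Vars and Farsa, the only ones whose groups did not overlap with Id2-GFP lower (3.77% of all genes). Vars was at 399, 376 and 492 CPM with control-GFP and 351, 278 and 313 CPM with Id2-GFP, a log2 fold change of -0.42 with a 95% interval of -0.86 to 0.01 (limma adjusted p = 0.998). Farsa was at 148, 137 and 146 CPM with control-GFP and 133, 98.0 and 101 CPM with Id2-GFP, at -0.39 with an interval of -0.80 to 0.02 (limma adjusted p = 0.998). Both were lower in 3 of 3 pairs of like number, but the intervals reached 0. In all, 4 cytosolic and 2 mitochondrial members were lower in 3 of 3 pairs. How many of all genes were lower in every pair of this set was not counted. Yars was at 92.0, 83.7 and 128 CPM with control-GFP and 93.1, 71.4 and 74.7 CPM with Id2-GFP, and its groups overlapped. Of the mitochondrial members, Wars2 was at 13.9, 15.0 and 10.5 CPM with control-GFP and 16.0, 15.2 and 16.0 CPM with Id2-GFP, with an interval of -0.22 to 0.77. Iars2 was at 79.4, 82.4 and 75.3 CPM and 96.1, 82.5 and 87.0 CPM, with an interval of -0.19 to 0.51. These 2 mitochondrial genes were the members whose Id2-GFP libraries all lay above the controls. The margins were narrow, 15.2 against 15.0 CPM for Wars2 and 82.5 against 82.4 CPM for Iars2. The share of all genes with that pattern was not counted, so no weight is put on it. Pars2 was at 9.24, 7.16 and 11.4 CPM with control-GFP and 8.58, 6.65 and 7.67 CPM with Id2-GFP, with an interval of -0.86 to 0.34.

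Control-GFP replicate 3, which stood apart over all genes, was the highest control for 25 of 36 members and 16 of 20 cytosolic ones, against 47.5% of all genes. Sars shows it most plainly, at 117, 119 and 229.9 CPM with control-GFP and 124, 130.0 and 127 CPM with Id2-GFP. Without that library the medians were -0.08 over the cytosolic and -0.005 over the mitochondrial members, and 15 of 20 and 9 of 16 were negative. Of all 14563 genes, 7488 were negative in that fit, with a median of -0.009. Other libraries moved the cytosolic median as well, to -0.09 without Id2-GFP replicate 2, to -0.31 without Id2-GFP replicate 1 and to -0.32 without control-GFP replicate 2. All 12 proliferation genes were also negative with Id2-GFP, with a median of -0.42 and none called, and Myc was at 92.4, 121 and 269 CPM in the controls, highest in replicate 3. The part of that library's state in the members' values was not tested beyond leaving it out.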

How the data were processed

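RNA sequencing libraries (TruSeq V2 kit, per the labels' protocols) were analysed from 14 samples. Per the submitters' processing notes, reads were handled with CASAVA 1.8.2, TopHat2, HTSeq and limma on mm10; strand settings are not given in the sources used here. The deposited values are log2 CPM, which the authors made from read counts with an offset of 0.5 reads and scaled library sizes, as the values themselves show: 100% came back as whole reads within 0.01 read. A count-model test was not applied to these log2 values.

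Log2 CPM was tested with limma 3.58.1 (R 4.3.3) with a variance trend, without a block, over all genes of a table, with Benjamini-Hochberg adjustment at 0.05; 13 entries repeated with the same values in the doxycycline table were used once. CPM is 2 to the power of the deposited value. The procedure was tested on simulated data. Same-label libraries deviated together (correlations 0.398 to 0.543 in 4 pairs, and 0.500 to 0.502 in 3 pairs by number, against at most 0.163 and 0.001 for others), so the labels pair the samples. The SEs, intervals and p-values of the main fit leave this pairing out. With the pair as a block, calls over all genes of the doxycycline table rose from 8733 to 9326.

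Named in full are the 3 cytosolic and 3 mitochondrial members with the smallest p in each comparison, all lists by counts and up to 4 members (some list members are not reported here), and Mll1, Mllt3, Nras, Id2, Myc and Atf4; Farsb, Vars, Sars, Lars2 and the other members singled out were chosen after their values were seen. Members and gene lists were chosen with earlier results of these data known. Alternatives were the pair block, library totals, quantile normalization, a floor of 2 on mean log2 CPM, no variance trend, leaving out each library and, chosen after seeing the data, voom weights and leaving out both libraries of a number. Gene models were GENCODE, matched by identifier for all 36 members, promoters were RefSeq (GRCm38.p6), and transcript matches used blastn 2.17.0.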

Additional observations from a re-analysis of the deposited data

Results flagged for a closer look

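In 4 of 72 groups of 4 libraries, 1 library lay far from the others on the log2 scale, where chance alone gives about 1 in 20. The gap to the nearest library, as a share of the group's range, was 0.909 for Lars2 in doxycycline replicate 4 (7919.6 CPM), 0.883 for Eprs in the same library (151 CPM, the lowest of its group), 0.838 for Hars2 in untreated replicate 2 (33.9 CPM, the highest) and 0.831 for Gars in doxycycline replicate 2 (140.3 CPM, the lowest). Groups of 3 were not examined in this way.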

How the results depend on the processing

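Of 504 member values in the doxycycline comparison over 14 alternatives, 473 kept their call status, 14 gained a call, 15 lost one and 2 turned sign and became called; 6 of the 473 changed sign while uncalled on both sides; all 540 of the Id2 comparison over 15 alternatives stayed uncalled, 47 of them with a changed sign. With library totals, Cars (-0.20, limma adjusted p = 0.0201) and Iars2 (-0.23, limma adjusted p = 8.11e-04) became lower; the totals differ from the authors' scaling by the shift of all genes given above. The count of cytosolic members higher was 1 (Sars) with the floor on mean log2 CPM and 0 to 1 over the single libraries left out; for mitochondrial members it was 0 to 1 (Lars2, without doxycycline replicate 4). Leaving out single libraries gave 12 to 15 cytosolic and 10 to 11 mitochondrial members lower. With the replicate block these were 15 and 11, Gars being added, and the block changed no other member call; calls in the Id2 table rose from 2 to 35. Voom weights gave 13 and 11. The count-model tests by edgeR and DESeq2 that had been planned were not run, because the deposited values are log2. Depth limits the lowest genes, such as Pars2 at 80 reads in 1 library, and with 3 libraries a group the Id2 interval of Vars, down to -0.86, takes in its doxycycline value of -0.76.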
